A study of Mus musculus with 6 samples.

Results

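Thrombomodulin (Thbd), the endothelial protein C receptor (Procr), tissue factor (F3), tissue factor pathway inhibitor (Tfpi), protease nexin-1 (Serpine2), tissue-type and urokinase-type plasminogen activator (Plat and Plau) and the urokinase receptor (Plaur) were described in brown adipocytes with MICT1 knocked out. The genes were chosen by symbol for their part in the control of coagulation and in plasminogen activation, and all 8 of the 8 named were found among the 13283 genes of the deposited table. The level of Thbd, which is among the most abundant transcripts, was a reason for the choice, so that level is given as a description without a test. The cells were an immortalized mouse brown preadipocyte (BAT) line that expresses Cas9, transduced with lentivirus for either a scrambled sgRNA (Scr, called control and WT in the labels) or a sgRNA against MICT1 (MICT1 KO), and grown as pools. All 6 cultures, 3 Scr and 3 MICT1 KO, were taken through adipogenic differentiation and received 10 µM forskolin, an activator of adenylyl cyclase that raises cAMP, for 6 h on day 6. The labels do not say which sgRNA pool each MICT1 KO library came from. The paper describes fewer knockout pools than there are MICT1 KO libraries, so if all came from these, some share a pool. The SDs and p-values below therefore measure the spread between cultures and not between independent knockouts. MICT1 itself was not analysed here, and the labels were therefore not checked on the targeted gene.

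Coagulation starts when tissue factor, a membrane receptor, binds factor VII and so leads to thrombin. Tfpi blocks this first step, while thrombomodulin binds thrombin and turns it toward activation of protein C, which Procr holds at the cell surface. Fibrin and other extracellular proteins are broken down by plasmin, which Plat and Plau cut from plasminogen. Plaur anchors Plau to the cell membrane, and the serpin Serpine2 inhibits both activators and thrombin. In adipose tissue the vessel wall is a known source of thrombomodulin and Procr.

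In MICT1 KO cells all 8 genes were higher than in Scr cells. Plau rose most, 7.54-fold, followed by Procr (2.72-fold), Plat (2.68-fold), F3 (2.28-fold) and Serpine2 (2.23-fold), and the smallest rises were those of Plaur (1.73-fold), Thbd (1.49-fold) and Tfpi (1.48-fold). By limma-trend with Benjamini-Hochberg adjustment over the 12507 genes tested, 8 of 8 passed an adjusted p of 0.05, against 56.9% of all genes tested in either direction and 28.5% as higher, and 5 of 8 were also at least 2-fold higher, against 7.99%. In 8 of 8 genes the 3 MICT1 KO values lay above the 3 Scr values, which was the case for 30.9% of all genes tested, while 31.2% had them below. The median log2 fold change was 1.17 over the 8 genes and -0.0053 over all genes. The genes were chosen with earlier results of these data known, so this count describes them and is no independent evidence that coagulation genes moved as a group. Fold changes here are on the scale of log2(value + 1), where a value is the authors' normalized signal per gene, in effect reads divided by a factor for each library.

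The promoters of these genes were searched for letters known from genes that respond to cAMP and to AP-1 factors. RefSeq promoter windows (GRCm38, 250 bases before to 50 bases after a start site) were matched for 5 of the 8 genes, F3, Procr, Plaur, Serpine2 and Tfpi, with 6 windows in all. Windows for Thbd, Plat and Plau were not analysed here. Both strands were searched for TGACGTCA, the full cAMP response element, for its core TGACG, for the AP-1 letters TGANTCA and for the GC box GGGCGG. The full cAMP response element was in 0 of the 6 windows and in 1.79% of all 32851 windows, and its core, which the full element contains, was in 1 window (Procr) and in 20.8% of all. AP-1 letters were in 3 of the 6 windows, those of F3, Procr and Plaur, and in 7.81% of all windows. GC boxes were in 5 of the 6 windows, all but that of Procr, and in 35.7% of all. A match to these letters is a description of the sequence and does not show that a factor binds there.

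The bases before the start site are printed for the genes with AP-1 letters, F3 with its neighbouring pair, Procr and Plaur, and for Serpine2 as the window richest in GC boxes without them, in each case only outside the exons that GENCODE gives for the gene, which leaves out the Serpine2 GC boxes at -19 and -13. They lie at chr3:121723287-121723536 (plus strand, F3), chr2:155750967-155751116 (plus strand, Procr), chr7:24462233-24462482 (plus strand, Plaur) and chr1:79858697-79858915 (minus strand, Serpine2), and read 5′ to 3′. The Serpine2 stretch lies within the gene as GENCODE gives it (79794197 to 79861180), before a RefSeq start site inside the gene. Capitals mark TGANTCA in the first 3 and GGGCGG in the last.
F3: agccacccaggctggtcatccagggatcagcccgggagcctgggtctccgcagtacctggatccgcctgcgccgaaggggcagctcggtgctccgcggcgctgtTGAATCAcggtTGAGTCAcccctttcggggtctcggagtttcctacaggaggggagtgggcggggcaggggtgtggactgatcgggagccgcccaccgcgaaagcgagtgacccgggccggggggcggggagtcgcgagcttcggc
Procr: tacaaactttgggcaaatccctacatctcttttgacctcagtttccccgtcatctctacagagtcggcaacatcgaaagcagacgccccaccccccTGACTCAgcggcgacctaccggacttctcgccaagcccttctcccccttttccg
Plaur: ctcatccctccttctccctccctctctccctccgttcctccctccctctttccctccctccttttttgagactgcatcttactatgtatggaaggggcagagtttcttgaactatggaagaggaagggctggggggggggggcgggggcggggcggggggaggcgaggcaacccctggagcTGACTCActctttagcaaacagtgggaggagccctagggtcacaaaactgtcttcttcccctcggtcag
Serpine2: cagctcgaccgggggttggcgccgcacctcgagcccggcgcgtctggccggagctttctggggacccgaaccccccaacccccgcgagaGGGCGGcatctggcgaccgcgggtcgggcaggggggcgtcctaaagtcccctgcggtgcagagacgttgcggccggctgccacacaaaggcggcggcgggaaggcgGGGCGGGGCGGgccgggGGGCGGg

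Counted from the start site, the AP-1 letters began at -146 and -135 in F3, at -154 in Procr and at -69 in Plaur. The log2 fold changes of these genes in MICT1 KO cells were 1.19, 1.44 and 0.79, and those of the genes with a window but without AP-1 letters were 1.16 for Serpine2 and 0.57 for Tfpi. The ranges of the log2 fold change with and without these letters therefore overlapped.

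**Figure D1:**
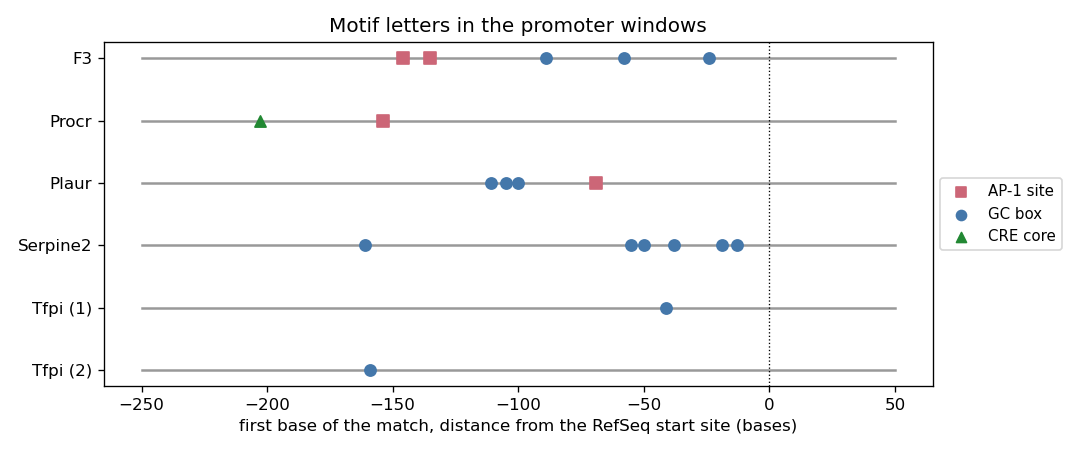
Position of AP-1 letters (squares), GC boxes (circles) and the cAMP response element core (triangle) in the promoter windows of F3, Procr, Plaur, Serpine2 and Tfpi (both windows), as the distance in bases of the first matching base from the RefSeq start site. AP-1 letters are seen at -146 and -135 in F3, -154 in Procr and -69 in Plaur, and the only core element at -203 in Procr.

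The libraries were of like depth. The deposited signal corresponded to between 15440309 and 17917646 estimated reads per library, taken from the size of 1 read in that library, of which 88.8% to 90.3% of the low values (under 20) were a multiple to within 0.01. Scr replicate 2 stood apart in Rn45s, the precursor of ribosomal RNA, at 319163 against 81699 to 136619 in the other libraries, and without this gene it differed from the other Scr libraries about as much as they did from each other. Without Scr replicate 2 the log2 fold changes of the 8 genes lay between 0.57 and 3.004, and 8 of 8 stayed past the threshold.

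Genes of adipocytes, in a list drawn up for brown adipocytes, were much lower in MICT1 KO cells. Of 12 such genes 10 were tested and limma-trend called them lower at an adjusted p of 0.05, against 28.3% of all genes. Adipoq and Ucp1 were under 10 in every MICT1 KO library and passed the filter on low values (10 or more in 3 libraries) only through Scr, so they had to differ, and the count that does not rest on this is 8. Their summed level was 8143 to 9714 CPM in Scr against 951 to 1379 CPM in MICT1 KO cells. Adipoq (-6.66), Plin1 (-5.93), Lpl (-2.44) and Ucp1 (-2.71 on the log2 scale) were among them. Ucp1 was low in Scr at a value of 25.1 ± 4.96 (SD, n = 3), and no value was used here for Cidea and Prdm16. The highest genes of the list were Lpl and Fabp4 (means of 3364 and 3261 CPM in Scr). The paper counts Pparg, Fabp4 and Adipoq as adipogenic markers, so the list does not stand for brown adipocytes alone. Among the 6 tested progenitor and fibroblast genes 3 were higher (Ly6a, Col1a1 and Pdgfrb) and 2 lower (Dlk1, by -3.47 on the log2 scale, and Pdgfra, by -0.19), against 28.5% and 28.3% of all genes. Their median was 0.22. The summed level of this list was 2227 to 2593 CPM in Scr against 3062 to 3257 CPM in MICT1 KO cells. Its rise was mostly that of Col1a1 (means of 1097 and 1874 CPM), while Col3a1 did not pass (means of 1005 and 972 CPM). In bulk RNA a change in the number of cells of a type and a change in the RNA of each cell cannot be told apart. The part of this difference in differentiation in the results on the 8 genes was not tested.

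Thbd encodes thrombomodulin, a membrane protein of the vessel wall that binds thrombin. The gene lies on chromosome 2 from 148404466 to 148408188 (GRCm38, minus strand) and has 1 exon of 3723 bases. Its normalized signal was 46931, 56251 and 49252 in the Scr cultures against 73298, 79966 and 72711 in the MICT1 KO cultures. The groups did not overlap, Scr replicate 2 was the highest of its group and KO replicate 2 the highest of all. The means were 50812 ± 4852 (SD, n = 3) and 75325 ± 4029.9 (SD, n = 3), a difference of 0.57 on the log2 scale (SE 0.067, limma-trend adjusted p = 3.49e-07).

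The rise of Thbd was small in fold but took place in a gene that already held a large share of each library. Thbd made up 0.291%, 0.339% and 0.301% of the summed signal in Scr cells against 0.446%, 0.491% and 0.448% in MICT1 KO cells. Ordered by signal it stood at rank 12, 6 and 11 of all genes in the Scr libraries and at rank 4 in each MICT1 KO library. Per exon length, as RPKM, its rank was 21, 18 and 23 in Scr cells against 14, 9 and 12 in MICT1 KO cells. With each library left out in turn its log2 fold change lay between 0.52 and 0.65.

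Procr encodes the receptor that presents protein C to the complex of thrombin and thrombomodulin, and lies on chromosome 2 from 155751117 to 155755471 in 3 exon blocks. Its signal was 312, 313 and 279.8 in Scr cells against 844, 899.8 and 727 in MICT1 KO cells, so that the lowest MICT1 KO value was above every Scr value. The means of 302 ± 18.8 and 823 ± 88.4 (SD, n = 3 each) differed by 1.44 on the log2 scale (SE 0.10, limma-trend adjusted p = 1.27e-10). Per length, the level of Thbd was 82.2, 97.9 and 96.0 times that of Procr in the Scr libraries and 47.4, 48.5 and 54.6 times in the MICT1 KO libraries. The ratio of Thbd to Procr was thus 1.83-fold lower in MICT1 KO cells, with no overlap between the groups.

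Other genes of the protein C system gave a partial picture. Pros1, the gene of protein S, the cofactor of activated protein C, rose from 529 ± 28.2 to 1179.9 ± 13.4 (SD, n = 3 each), or 1.16 on the log2 scale (limma-trend adjusted p = 5.67e-11). F2r, which encodes the thrombin receptor PAR1, rose from 549 ± 35.9 to 1770.2 ± 177 (SD, n = 3 each), or 1.68 on the log2 scale (limma-trend adjusted p = 3.32e-13). F5, the gene of factor V, was below the filter on low values, at 3.96, 7.42 and 5.09 in Scr cells against 2.86, 14.8 and 1.04 in MICT1 KO cells, and the groups overlapped. Proc and F2, the genes of protein C and prothrombin, were not analysed here.

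Thbd and Procr are also known as endothelial genes, so markers of endothelium were looked at beside them. Of 11 endothelial markers 2 had a value here, Egfl7 and Cdh5, and none was used for Pecam1. Their summed level was 3.66 to 6.39 CPM in Scr against 6.03 to 8.03 CPM in MICT1 KO cells, while Thbd alone had a mean of 3102 CPM in Scr. Cdh5, which encodes the cadherin of endothelial junctions, had values of 5.93, 12.1 and 8.14 in Scr cells against 33.4, 30.6 and 25.9 in MICT1 KO cells. It passed the filter on low values only through the MICT1 KO libraries, so its difference is given as values without a test. Egfl7 was 75.6 ± 22.6 and 82.6 ± 17.2 (SD, n = 3 each) and did not pass the test (log2 fold change 0.15, limma-trend adjusted p = 0.631). The part of these few reads in the results on Thbd and Procr was not tested.

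**Figure D2:**
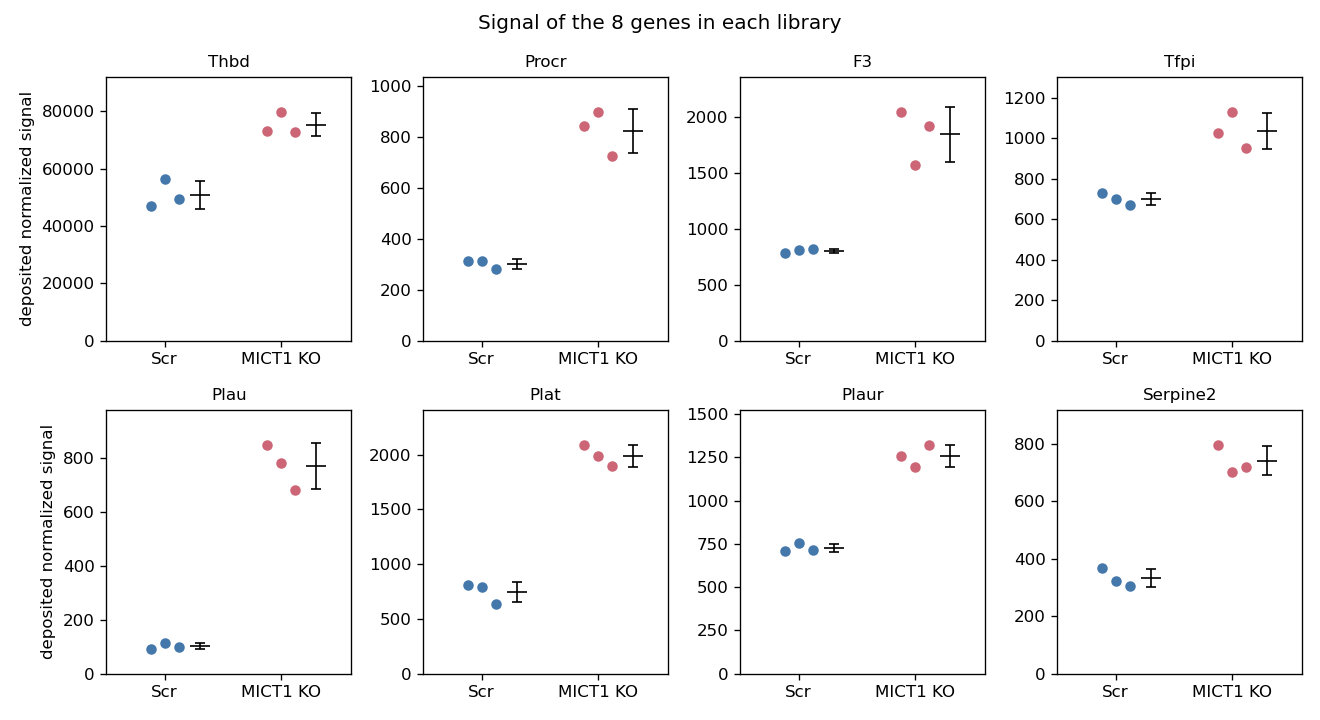
Deposited normalized signal of Thbd, Procr, F3, Tfpi, Plau, Plat, Plaur and Serpine2 (vertical axis, each panel from 0) in the 3 Scr (blue) and 3 MICT1 KO (red) libraries, with the group mean and SD in black. In each of the 8 panels the 3 MICT1 KO points sit above the 3 Scr points, widest apart for Plau (90.0 to 114 against 681 to 849).

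F3 encodes tissue factor, the membrane receptor that starts coagulation, and lies on chromosome 3 from 121723537 to 121735048 in 7 exon blocks. Its signal was 784, 808 and 823 in Scr, within a narrow range, and 2053, 1569.9 and 1921 in MICT1 KO libraries, where KO replicate 2 was the lowest. The means were 805 ± 19.6 (SD, n = 3) and 1848 ± 249 (SD, n = 3), a difference of 1.19 on the log2 scale (SE 0.083, limma-trend adjusted p = 1.25e-10).

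Tfpi, the gene of the inhibitor of tissue factor and factor VIIa, lies on chromosome 2 from 84432855 to 84476775 in 12 exon blocks. Its signal was 728, 699 and 671 in Scr cells against 1027, 1133 and 953 in MICT1 KO cells, and here KO replicate 2 was the highest. The means of 699 ± 28.7 and 1037 ± 90.5 (SD, n = 3 each) differed by 0.57 on the log2 scale (SE 0.081, limma-trend adjusted p = 4.86e-06). The 95% interval of the log2 fold change was 0.40 to 0.73 for Tfpi and 1.01 to 1.36 for F3, so these intervals did not meet. Per length, F3 was 2.33, 2.50 and 2.65 times as high as Tfpi in Scr and 4.32, 2.996 and 4.36 times in MICT1 KO libraries, a 1.54-fold higher ratio. The lowest ratio in MICT1 KO cells, that of KO replicate 2, was close to the Scr range.

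Plau encodes urokinase, the plasminogen activator of cell surfaces, and lies on chromosome 14 from 20836660 to 20843385 in 11 exon blocks. Its signal was 90.0, 114 and 99.7 in Scr cells against 849, 779.7 and 681 in MICT1 KO cells, and every MICT1 KO library was several-fold above every Scr library. The means were 101 ± 12.1 (SD, n = 3) and 770.0 ± 84.6 (SD, n = 3), a difference of 2.92 on the log2 scale (SE 0.13, limma-trend adjusted p = 7.94e-14). Among the 12507 genes tested this was the rise of rank 60. With each library left out in turn it lay between 2.83 and 3.004.

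Plat, the gene of tissue-type plasminogen activator, lies on chromosome 8 from 22757727 to 22782844 in 13 exon blocks. Its signal was 806, 793 and 636 in Scr, where replicate 3 was the lowest, and 2094, 1987 and 1895 in MICT1 KO libraries. The means of 745 ± 94.6 and 1992 ± 99.5 (SD, n = 3 each) differed by 1.42 on the log2 scale (SE 0.083, limma-trend adjusted p = 6.10e-12). The balance between the activators moved with these changes, since per length Plat was 3.40, 2.64 and 2.42 times as high as Plau in Scr and 0.935, 0.967 and 1.06 times in MICT1 KO libraries. Per exon length, Plat was thus above Plau in every Scr library, and in MICT1 KO cells they were at about the same level. This depends on the exon lengths used, 6241 bases for Plat and 2367 for Plau. By signal, which is not per length, Plat stayed above Plau in every MICT1 KO library (1895 to 2094 against 681 to 849).

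Plaur encodes the receptor that holds urokinase at the cell membrane, and lies on chromosome 7 from 24462484 to 24475968 in 6 exon blocks. Its signal was 709, 752 and 713 in Scr cells against 1256, 1195 and 1324 in MICT1 KO cells, with little spread in either group. The means of 725 ± 23.5 and 1258 ± 64.5 (SD, n = 3 each) differed by 0.79 on the log2 scale (SE 0.074, limma-trend adjusted p = 9.63e-09). The level of Plau per length was 0.140, 0.168 and 0.155 times that of Plaur in Scr and 0.748, 0.721 and 0.569 times in MICT1 KO libraries, a 4.39-fold higher ratio of ligand to receptor transcript.

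Serpine2 encodes protease nexin-1, an inhibitor of thrombin, urokinase and plasmin, and lies on chromosome 1 from 79794197 to 79861180 in 10 exon blocks. Its signal was 367, 324 and 306 in Scr cells against 798, 703 and 721 in MICT1 KO cells. The groups did not overlap, and their means of 332 ± 31.3 and 741 ± 50.4 (SD, n = 3 each) differed by 1.16 on the log2 scale (SE 0.10, limma-trend adjusted p = 3.13e-09).

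The 4 ratios given here, F3 to Tfpi, Plau to Plaur, Plat to Plau and Thbd to Procr, were each computed within a library and so do not depend on the scaling between libraries. In all 4 the groups did not overlap, and the exact permutation test (two-sided, 3 against 3 libraries) gave p = 0.1 for each, which is the smallest it can give, and 0.1 after adjustment over the 4. This test cannot reach a p of 0.05 with 3 against 3 libraries, and no other test was run on the ratios.

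**Figure D3:**
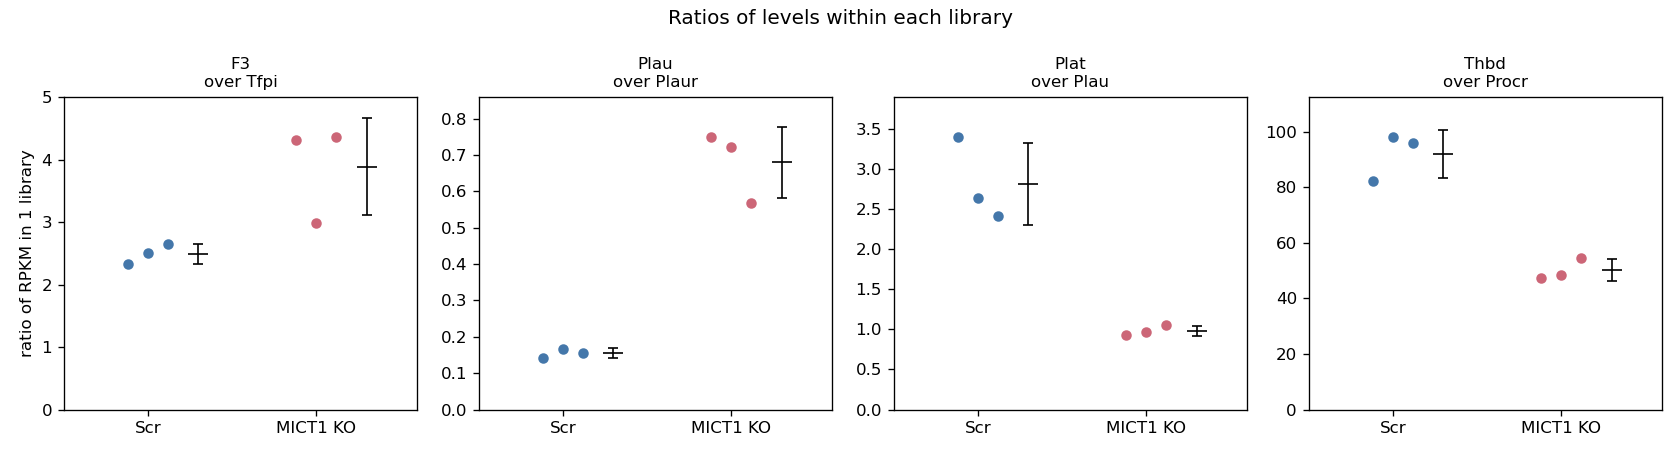
Ratio of RPKM within each library (vertical axes from 0) for F3 to Tfpi, Plau to Plaur, Plat to Plau and Thbd to Procr, in 3 Scr (blue) and 3 MICT1 KO (red) libraries with mean and SD in black. The ratio of Plau to Plaur rises from 0.154 ± 0.0137 to 0.679 ± 0.0967 and that of Thbd to Procr falls from 92.0 ± 8.60 to 50.2 ± 3.88 (SD, n = 3).

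Levels of the 8 genes were compared with each other per exon length, as RPKM. In Scr cells Thbd came first at 833 ± 67.1 RPKM (SD, n = 3), far above F3 at 19.5 ± 0.356 and Plaur at 16.9 ± 0.337. Then followed Procr (9.07 ± 0.588), Tfpi (7.82 ± 0.406), Plat (7.29 ± 0.9503), Plau (2.61 ± 0.271) and Serpine2 (2.45 ± 0.262). Neighbours in this order overlapped between libraries for Tfpi and Plat and for Plau and Serpine2, which therefore were not set apart by their spread.

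In MICT1 KO cells the order was Thbd (1239.9 ± 69.2 RPKM), F3 (44.8 ± 5.88), Plaur (29.5 ± 1.56), Procr (24.8 ± 2.63), Plau (19.9 ± 2.08), Plat (19.6 ± 0.862), Tfpi (11.6 ± 1.02) and Serpine2 (5.48 ± 0.340), each with SD over 3 libraries. Here the neighbours that overlapped were Plau and Plat. Plau moved from rank 7 to rank 5 of the 8 genes and Tfpi from rank 5 to rank 7, while the first 4 and the last kept their places. This order holds for RPKM, and the order by signal, which is not per length, was different.

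**Figure D4:**
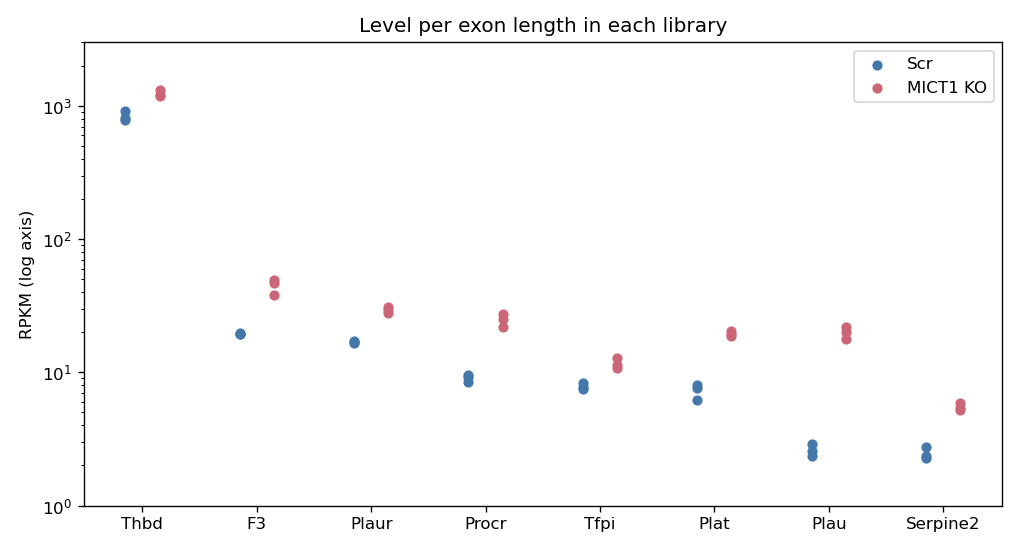
Level of each of the 8 genes as RPKM (log axis) in the 3 Scr (blue) and 3 MICT1 KO (red) libraries, ordered by the mean in Scr. Thbd lies at 783 to 909 RPKM in Scr and 1198 to 1319.8 RPKM in MICT1 KO libraries, and no other of these genes exceeds 49.4 RPKM.

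Other genes of coagulation and the plasminogen system were less uniform. Of 48 such genes 22 had a value here and 19 passed the filter on low values, and of these limma-trend called 8 higher and 3 lower at an adjusted p of 0.05, while 8 did not pass. These shares stand beside 28.5% higher and 28.3% lower among all genes tested, and the median log2 fold change of the 19 genes was 0.18. At least 2-fold higher were 4 genes and at least 2-fold lower was 1, against 7.99% and 5.76% of all genes.

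The 4 with the largest rises were Serpini1, F2r, Mrc2 and Pros1. Serpini1, which encodes neuroserpin, an inhibitor of tissue-type plasminogen activator, rose from 96.1 ± 19.6 to 456 ± 84.7 (SD, n = 3 each), or 2.24 on the log2 scale (limma-trend adjusted p = 3.08e-10). Mrc2, whose product Endo180 is a collagen receptor that associates with the urokinase receptor, rose from 1512 ± 139.6 to 4198 ± 289 (SD, n = 3 each), or 1.47 on the log2 scale (limma-trend adjusted p = 1.95e-13). The only fall of that size was Tgm2, the gene of tissue transglutaminase, a crosslinking enzyme, with 1685, 1708 and 1885 in Scr cells against 266, 200.2 and 230.1 in MICT1 KO cells (log2 fold change -2.92, limma-trend adjusted p = 8.07e-16).

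Receptors of plasminogen and clearance receptors went in either direction. Plgrkt, the gene of a plasminogen receptor, was lower in MICT1 KO cells, at 472 ± 26.3 against 258 ± 29.1 in Scr and MICT1 KO (SD, n = 3 each), or -0.88 on the log2 scale (limma-trend adjusted p = 1.53e-06). Lrp1, which encodes an endocytic receptor that clears complexes of protease and serpin, rose from 8118 ± 464 to 12097 ± 679 (SD, n = 3 each), or 0.58 on the log2 scale (limma-trend adjusted p = 2.71e-08). S100a10 and Anxa2 encode the subunits of a surface complex that binds plasminogen and Plat. S100a10 was higher (log2 fold change 0.25, limma-trend adjusted p = 0.00236), and Anxa2 was 16117 ± 1110.2 in Scr and 17304 ± 1458 in MICT1 KO cells (SD, n = 3 each) and did not pass (log2 fold change 0.10, limma-trend adjusted p = 0.185). Serpinf2, the gene of the plasmin inhibitor, was below the filter, with values from 0.989 to 4.63 in Scr and 1.04 to 8.58 in MICT1 KO libraries, and Plg and Serpinb2 were not analysed here.

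**Figure D5:**
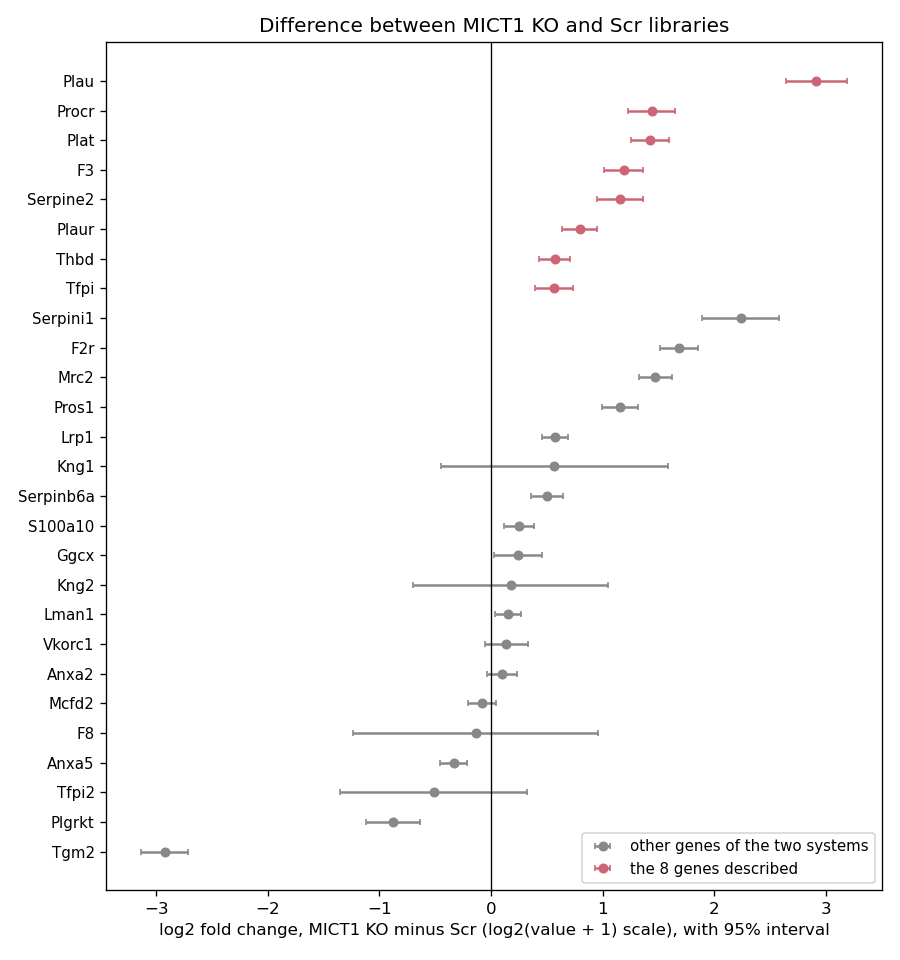
Log2 fold change of MICT1 KO minus Scr with its 95% interval (horizontal axis, on the log2(value + 1) scale) for the 8 genes described (red) and the 19 other tested genes of coagulation and the plasminogen system (grey). The 8 genes lie between 0.57 (Tfpi) and 2.92 (Plau), and the 19 others between -2.92 (Tgm2) and 2.24 (Serpini1).

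Markers of further cell types were set beside these genes, since several are also made by macrophages, mesothelium or smooth muscle. Of 10 macrophage markers 4 had a value, with a summed level of 16.6 to 23.1 CPM in Scr against 31.8 to 39.2 CPM in MICT1 KO cells. Of these 1 was higher, Cd14 (192 ± 54.8 and 444 ± 49.8, SD, n = 3 each), which held most of the sum (means of 11.7 and 27.2 CPM). Csf1r, Cd68 and Mrc1 did not pass (limma-trend adjusted p = 0.253, 0.733 and 0.967), and no value was used for Adgre1 or Ptprc. Of 5 mesothelial markers 3 had a value. Wt1 was higher (55.2 ± 9.40 and 85.8 ± 11.3, SD, n = 3 each), Krt19 was lower (1791 ± 102 and 615 ± 75.2), and no value was used for Upk3b. Msln was 22.7, 26.9 and 7.12 in Scr cells against 79.1, 35.8 and 57.0 in MICT1 KO cells. Without the MICT1 KO libraries Msln would not have passed the filter on low values, so its difference is given as values without a test. The summed level of the mesothelial markers was 107 to 119 CPM in Scr against 41.0 to 52.3 CPM in MICT1 KO cells. Nearly all of it was Krt19 (means of 109 and 37.6 CPM), so the sum does not show the higher values of Msln and Wt1. Of 6 smooth muscle and pericyte markers 4 were tested and 2 were lower, Acta2 (114 ± 8.34 and 44.8 ± 7.56) and Cspg4 (415 ± 93.7 and 216 ± 7.12, SD, n = 3 each). Tagln and Cnn1 did not pass (log2 fold change 0.067 and -0.91, limma-trend adjusted p = 0.680 and 0.0993). Rgs5 was below the filter and no value was used for Myh11. The summed level of these markers was 42.8 to 55.9 CPM in Scr against 31.9 to 34.1 CPM in MICT1 KO cells. Among all genes tested, limma-trend called 28.5% higher and 28.3% lower. The part of these cell types in the results on the 8 genes was not tested.

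Over the 6 libraries the pattern of Thbd was most like that of Dcaf7, Gng2 and Smad7, with a Pearson correlation of log2(value + 1) of 0.999, 0.998 and 0.997, among 9129 genes with a mean of at least 10 CPM. Their log2 fold changes were 0.23, 0.93 and 0.39. The correlation with Thbd was between 0.912 (F3) and 0.969 (Plau) for the other 7 genes, and 677 of the 9129 genes (7.42%) reached 0.95. These values are a description, since the 6 points are the libraries of the groups compared.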

How the data were processed

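RNA-seq of 6 libraries, 3 Scr and 3 MICT1 KO, was used. According to the methods, stranded total RNA libraries were sequenced with paired-end reads, which were aligned with Partek software to mm10. The submitters' processing notes also name STAR and DESeq2. The counting model, annotation and normalization are not given in the sources used here. The deposited values are a normalized signal for each gene, which appeared to be reads divided by a factor per library. No test for counts was used, since the values were not whole.

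Samples were grouped by their titles, which give the replicate numbers. The test was limma-trend on log2(value + 1) (limma 3.58.1, R 4.3.3) in genes that reached 10 in 3 or more libraries. Benjamini-Hochberg adjustment ran over all genes tested, and the threshold was 0.05. The functions were tested on simulated data. CPM and RPKM used the summed signal of a library and the GENCODE vM21 exon length, found for 12930 genes (97.3%), with all exons of a gene joined. RefSeq promoter windows were matched by symbol.

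The 8 genes and the 7 gene lists (coagulation and plasminogen genes and 6 sets of cell markers) were chosen with earlier results of these data known. All 8 were named. Of the other coagulation genes, those at least 2-fold changed and those of the plasminogen and protein C systems were named, as were the 3 genes most like Thbd and, of each marker list, the highest, the most changed and the defining genes. Further genes of these lists were named after their values were seen. 1 item of the coagulation list is not reported here and is in none of its counts. The ratios and promoter motifs were chosen after values were seen. Alternatives were library-sum scaling, pseudocounts of 0.5 and 5, no filter or a filter at 4 CPM, limma-voom, a block for the replicate number, omission of single libraries, and RPKM for the order of levels. The methods state that replicates are biological.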

Additional observations from a re-analysis of the deposited data

How the results depend on the processing

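All 13 alternatives called 8 of the 8 genes as higher, and their 104 single values kept direction and call. Of 240 values for other genes 232 did. Lman1, counted as higher (0.15, limma-trend adjusted p = 0.0233), lost its call without Scr replicate 2 (adjusted p = 0.0676), Scr replicate 3 (0.0790), KO replicate 2 (0.0503) or KO replicate 3 (0.0662). Ggcx (0.24, adjusted p = 0.0538) passed with the filter at 4 CPM (0.0495) and without Scr replicate 1 (0.0369). Genes called over the whole table numbered 7113, between 6728 (filter at 4 CPM) and 7157 (limma-voom) with all libraries and 6340 to 6596 with 1 library left out. Other coagulation and plasminogen genes called numbered 11, and 10 to 12 over the alternatives. Kng2, which did not pass (0.18), changed sign with single libraries left out, between -0.22 and 0.47, being -0.071 without Scr replicate 2. The cause was not tested. With the replicate block 7055 genes were called over the whole table, with 8 of 8 and 11 of the other genes. Same-numbered samples deviated together little or not at all (correlations -0.024, -0.015 and 0.064), and replicate 3 alone correlated best with its own number. With 3 libraries a group these correlations cannot show whether the numbers pair the samples. Ordered over all 6 libraries by signal and then by RPKM, Thbd stayed first, while Plat went from place 2 to 5, F3 from 3 to 2, Plaur from 4 to 3, Tfpi from 5 to 7, Procr from 6 to 4, Serpine2 from 7 to 8 and Plau from 8 to 6. RPKM rests on joined exons, and with 3 libraries a group small differences may be missed.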
